A study of Rattus norvegicus with 20 samples.

Results

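The comparison described here is the effect of doxorubicin in cultures that had also been given histidine: 5 libraries from neonatal rat cardiomyocyte cultures with histidine and doxorubicin against 5 libraries with histidine alone. These 10 of the 20 libraries of the study were taken by their treatment labels, and all 15503 genes of the deposited table were considered. The RNA was read out by RNA-seq. Histidine was labelled at 100 nM and doxorubicin at 1 µM, and the cultures were labelled with a time of 72 h. Another 5 libraries came from cultures with PBS, and the last 5 from cultures with doxorubicin without histidine. Every one of the 10 libraries compared therefore comes from a culture with added histidine, and doxorubicin is the difference between the groups. The titles number the libraries 1 to 5 within every group. They do not say whether libraries of the same number share an animal, a litter or a culture, and the main test did not pair them. The p-values measure the spread between these libraries, which may be technical.

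Doxorubicin is an anthracycline used against tumours. It intercalates into DNA and traps topoisomerase II on cut DNA, which activates the p53 response, and its quinone ring cycles electrons to oxygen, with damage to the heart as the dose-limiting toxicity. Neonatal heart cultures hold cardiomyocytes together with fibroblasts, smooth muscle, endothelial and immune cells, of which the non-muscle cells divide most readily. Histidine is an essential amino acid, the precursor of histamine and of the muscle dipeptide carnosine.

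The label of the cultures was checked against marker genes before the comparison. The 15 cardiomyocyte markers measured (of 18 listed) summed to 1029 to 1211 normalised CPM (counts scaled to the library total) in the histidine libraries, so cardiomyocyte transcripts were present. The 23 fibroblast markers summed to 113647 CPM there. Per length, in the deposited FPKM values (fragments per kilobase of gene, scaled to depth), cardiac actin Actc1 averaged 168 and troponin T Tnnt2 105 in the histidine libraries, against 6011 for the collagen chain Col1a1. The fibroblast markers thus took 11.4% of the counts and the cardiomyocyte markers 0.112%. Because these are bulk libraries, fewer cells of a type and less RNA per cell cannot be told apart, here or in any result that follows.

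Depth ran from 53246205 to 71856131 counts per library. On the first principal component of the 10 libraries, with 70.6% of the variance, the histidine libraries lay at -77.2 to -72.4 and the libraries with both compounds at 74.2 to 77.2. The second component held 4.88% and set histidine replicate 5 and replicate 2 of both compounds apart from the other 8. Histidine replicate 3 stood apart in another way: 37 genes exceeded every other histidine library there by more than 2-fold, against 1 to 4 genes for the other 4. A further 128 genes, called switching genes here, had a highest library at least 8 times the lowest within a group. That ratio was taken after adding 0.5 CPM, with a highest of at least 5 CPM, and it does not require distinct levels. Of the 128 genes 11 passed the test below.

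Doxorubicin changed a large share of the measured transcriptome in the presence of histidine. Of 15350 genes tested, 7036 passed the threshold (45.8%), 3397 of them higher (22.1%) and 3639 lower (23.7%) with doxorubicin, by edgeR's quasi-likelihood test at an adjusted p under 0.05. The highest value of one group lay below the lowest of the other for 5430 genes (35.4%), 2517 of them higher with doxorubicin (16.4%) and 2913 lower (19%). The falls were the larger changes: 691 genes fell and 386 rose at least 4-fold, and 276 fell and 99 rose at least 16-fold. The median over all genes tested was a log2 fold change of 0.01. The shares of all genes, 22.1% higher and 23.7% lower, are the measure for every list count below and are not repeated at each. A list with shares near these changed about as often as all genes tested.

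**Figure D1:**
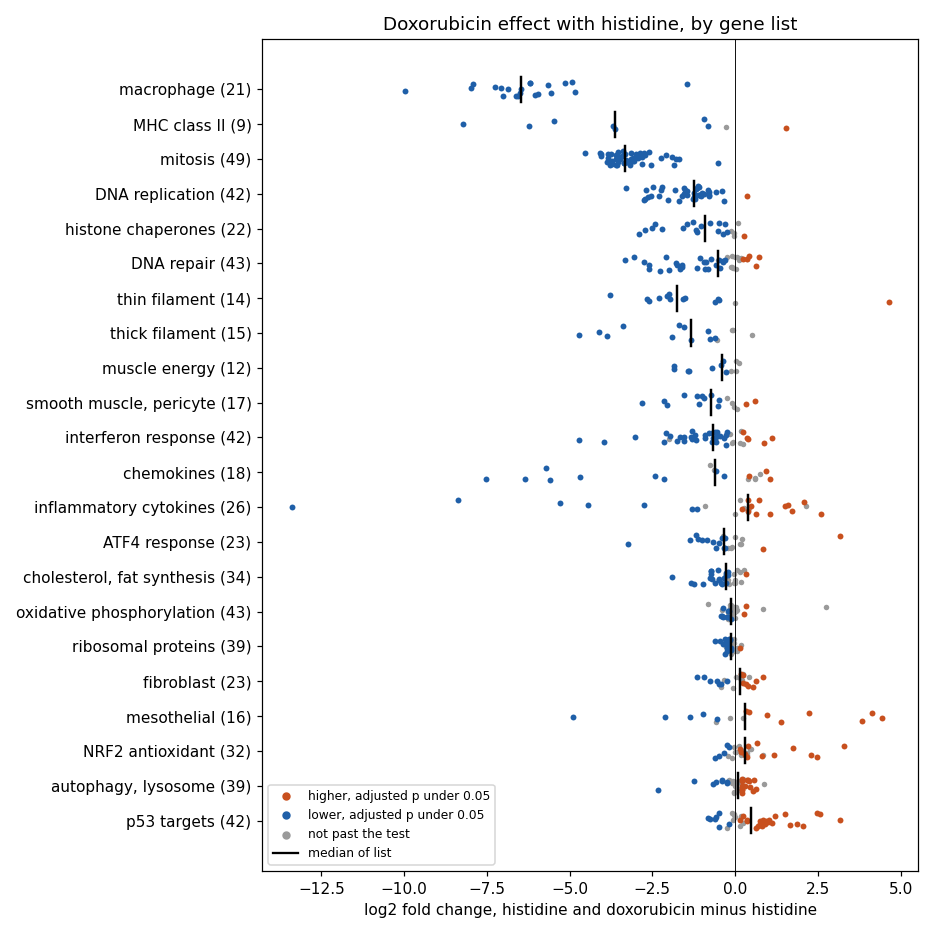
Log2 fold change with doxorubicin (horizontal axis, histidine and doxorubicin minus histidine) of each tested gene in 22 gene lists (rows). Orange dots rose, blue dots fell, grey dots did not pass the test, and the black bar is the median of the list. That median lies furthest to the left for the macrophage markers (-6.47), followed by the MHC class II genes (-3.64) and the mitosis genes (-3.33).

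The largest rises were in genes of very different kinds. Cst6, the gene of cystatin M, an inhibitor of cysteine proteases, lies at chr1:202655322-202657030, minus strand in mRatBN7.2 and was at 0.246, 0.251, 0.273, 0.200 and 0.549 CPM in the histidine libraries and at 13.1, 12.9, 21.9, 10.9 and 13.3 CPM in the libraries with both compounds. It rose from near silence in every library (log2 fold change 5.58, SE 0.29, adjusted p = 2.52e-08). Efemp1, a matrix glycoprotein, went from 2.65 ± 0.934 to 57.0 ± 9.25 CPM (log2 fold change 4.43, SE 0.24, adjusted p = 4.13e-08), and Upk1b, a tetraspanin of the urothelium and mesothelium, from 1.77 ± 0.683 to 31.5 ± 2.10 CPM (log2 4.15). The desmosomal cadherin Dsc3 (log2 3.85), the secreted inhibitor Pinlyp (4.30), the receptor tyrosine kinase Ltk (3.31), the glycosyltransferase Galnt13 (3.71) and the quinone reductase Nqo1 (3.29) rose with them.

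For other genes among the 10 largest rises, the size of change moved with a single library or the levels switched. Pla2g2a, a secreted phospholipase of inflammation, was at 3.71, 4.56, 33.1, 4.79 and 4.47 CPM in the histidine libraries and at 107, 102, 187, 86.5 and 88.4 CPM in the libraries with both compounds. The groups did not overlap, but histidine replicate 3 stood well above the other 4, and the log2 fold change was 3.49 with it and 4.70 without it. The gene passed in both fits. Ldah, a lipid droplet hydrolase, lay at 1.42 to 2.12 CPM with histidine and at 19.2 to 28.5 CPM with both. In the cultures without histidine the same gene was at 24.3, 19.8, 1.57, 19.4 and 18.3 CPM with PBS and at 24.03, 24.3, 25.1, 22.1 and 1.40 CPM with doxorubicin, so both of its levels also occurred among libraries of 1 treatment. The gene was named by its size of change, and its switching was seen afterwards.

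Several of the 10 largest falls, among genes with a symbol, a mean of at least 5 CPM and no overlap of the groups, were in genes known from white blood cells. Tnf, the inflammatory cytokine, was at 20.9, 21.1, 24.6, 21.97 and 17.3 CPM in the histidine libraries and had 0 reads in all 5 libraries with both compounds. Taking 3 reads in all 5 libraries together as the floor, it was at least 2346-fold lower. The blood-cell G protein subunit Gna15 (chr7:8184861-8205508, plus strand) also had 0 reads with both compounds, at least 1137-fold lower. Lst1, a leukocyte surface gene, kept 3 reads over the 5 libraries, 2150.3 times fewer than with histidine for the same TMM-scaled depth (95% Poisson limits 736 and 10427). Mrgprx3, a receptor of the Mas-related G protein-coupled family, kept 4 reads against 6862 with histidine (log2 -10.67). The small GTPase of leukocytes Rac2 (log2 -8.74), the receptor Tnfrsf14 (-8.72), the complement chain C1qb (-9.99, or -11.13 without replicate 4 of both compounds) and the cytokine Il1b (-8.39) fell as well, as did the neighbouring lectin receptors Clec4a1 (-8.75) and Clec4a3 (-8.83). Clec4a1 and Clec4a3 are close paralogs, so reads may be split between them, and fitted values this low depend on the prior count.

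Genes of the contractile apparatus fell. All 15 cardiomyocyte markers tested fell, with a median log2 fold change of -2.06, and their groups did not overlap for any of them. Myh7, the slow cardiac myosin heavy chain, was at 141, 145, 133, 122 and 127 CPM in the histidine libraries and at 7.10, 6.98, 6.31, 8.20 and 9.86 CPM in the libraries with both compounds. Every library with doxorubicin lay below every library without it, a 17.4-fold fall (log2 fold change -4.12, SE 0.12, adjusted p = 2.72e-10). The fast chain Myh6, which shares much of its sequence with Myh7, fell 14.7-fold from 160.2 ± 15.5 to 10.9 ± 2.36 CPM (log2 fold change -3.88, SE 0.15, adjusted p = 1.84e-09), and reads of the pair may be partly exchanged. Ventricular light chains Myl2 (log2 -4.71) and Myl3 (-3.39) fell to a like extent, while the atrial chain Myl7 (-0.82) fell less. Among the 15 thick filament and M-band genes 11 fell and none passed as higher, although 1 did without replicate 2 of both compounds.

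Thin filament and Z-disc genes moved the same way with named exceptions. Of 14 thin filament genes 12 fell and 1 rose (median -1.76). Actc1, cardiac alpha-actin, was at 261, 282, 309, 256 and 256 CPM in the histidine libraries and at 42.3, 37.5, 51.6, 38.4 and 45.1 CPM in the libraries with both compounds. Its groups lay far apart (6.35-fold, log2 fold change -2.67, SE 0.10, adjusted p = 1.36e-09), although actin genes are alike in sequence and can share reads. Troponin I (Tnni3, log2 -3.78), troponin C (Tnnc1, -2.31) and troponin T (Tnnt2, -1.57) fell, the last from 155 ± 11.3 to 52.4 ± 4.17 CPM. The gene against this direction was nebulin, Neb, the ruler protein of skeletal thin filaments, with 0.232, 0.232, 0.192, 0.246 and 0.151 CPM in the histidine libraries and at 5.09, 7.56, 3.55, 4.38 and 6.02 CPM in the libraries with both compounds. Of 13 Z-disc genes 8 fell, led by the calcineurin-binding Myoz2 (-2.62) and the intermediate filament gene Des (-2.14), and myopalladin, Mypn, rose (1.44, SE 0.38). Titin (Ttn) fell from 65.5 ± 14.5 to 22.3 ± 0.752 CPM (log2 -1.55, SE 0.15).

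**Figure D2:**
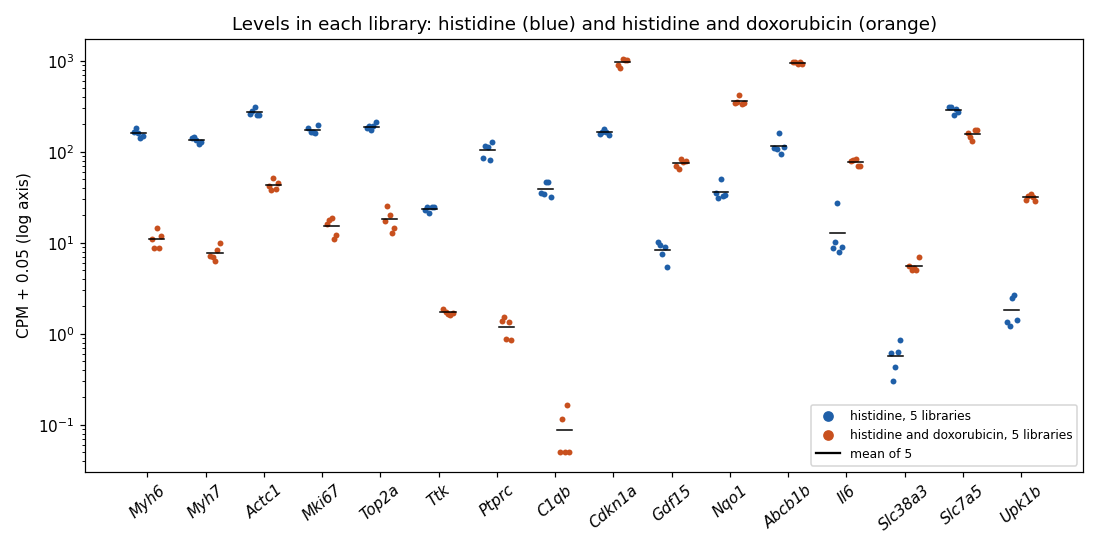
Normalised CPM plus 0.05 (vertical axis, log scale) of 16 genes in each of the 5 histidine libraries and the 5 libraries with both compounds, with a bar at the group mean. Myh6, Myh7, Actc1, Mki67, Top2a, Ttk, Ptprc, C1qb and Slc7a5 are lower with doxorubicin, and Cdkn1a, Gdf15, Nqo1, Abcb1b, Il6, Slc38a3 and Upk1b are higher.

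Cardiac transcription factors split by gene. Of 17 tested, 8 rose and 6 fell (median 0.11). Nkx2-5, the homeobox factor of cardiac muscle, fell from 3.07 ± 0.435 to 1.26 ± 0.161 CPM (log2 -1.28), and the coactivator Myocd (-1.54) and Mef2c (-0.74) fell too. Gata4, the zinc-finger factor also expressed in cardiac fibroblasts, rose from 62.9 ± 4.41 to 101 ± 4.70 CPM (log2 fold change 0.69, SE 0.06, adjusted p = 2.25e-06), together with Mef2a (0.62) and Hand2 (0.51). The natriuretic hormones fell, Nppa from 162 ± 21.4 to 51.5 ± 4.24 CPM (log2 -1.65) and Nppb from 29.1 ± 6.90 to 4.94 ± 1.15 CPM (-2.56), whereas the C-type natriuretic peptide receptor Npr2 rose (0.49). Over that list of 8 genes 1 rose and 4 fell, with 2 higher when replicate 3 of both compounds was left out.

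Calcium handling and channel genes followed the muscle genes only in part. Among 25 calcium genes 10 fell and 4 rose (40% and 16%, beside 23.7% and 22.1% of all genes tested). The calcium store protein Casq2 (log2 -2.06), the store-associated Hrc (-1.87) and sarcolipin Sln (-1.52) fell, and the release channel Ryr2 fell from 10.2 ± 1.87 to 3.35 ± 0.566 CPM (-1.61). The calcium pump Atp2a2 fell by a small amount (-0.21), and the main cardiac L-type channel Cacna1c did not pass (-0.10). The other L-type channel Cacna1d, typical of pacemaker and endocrine cells, rose from 0.854 ± 0.431 to 3.75 ± 0.314 CPM (2.13). Of 20 other channel genes 9 fell, with the inward rectifier Kcnj2 (-1.93) and the potassium channel Kcnq1 (-1.40) among them, and 5 rose, led by the sodium channel subunit Scn4b (2.62) and the stretch-gated potassium channel Kcnk2 (1.64).

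Connexin 43 could not be judged from these libraries. Gja1, the main gap junction gene of the ventricle, was at 7.59, 330.2, 440.4, 328 and 9.62 CPM in the histidine libraries and at 453, 478, 467, 415 and 427 CPM in the libraries with both compounds. Histidine replicates 1 and 5 lay far below the other 8 libraries, whose values overlapped, and the gene did not pass (log2 fold change 1.01, SE 0.86, adjusted p = 0.369). Of 15 intercalated disc genes 7 rose and 5 fell: desmoplakin Dsp (log2 0.60) and plakoglobin Jup (0.46) were among the rises, desmoglein Dsg2 (-0.94) and plakophilin Pkp2 (-0.47) among the falls.

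Most genes listed for muscle energy supply fell, while the respiratory chain changed little. Of the 12 genes of this list 8 fell and 0 rose. Among the falls were the brain-type creatine kinase Ckb, which is not a muscle form, from 127 ± 8.07 to 35.6 ± 3.24 CPM (log2 -1.84), the insulin-regulated glucose transporter Slc2a4 (-1.84) and the heart and muscle cytochrome oxidase subunit Cox6a2 (-1.40). None of the 13 mitochondrially encoded respiratory genes passed, with log2 fold changes between -0.14 and 0.054, but 8 of them passed as lower when replicate 2 of both compounds was left out. Mt-co1, the cytochrome oxidase core subunit, averaged 15541 ± 558 CPM with histidine and 14248 ± 1320.5 CPM with both. Of 43 nuclear respiratory genes 9 fell and 2 rose, each by less than 1.5-fold, and 2 fell in a fit over all 20 libraries. Without histidine replicate 2, 3 or 4, or replicate 1 of both compounds, 1 rose.

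Genes of fatty acid uptake and oxidation rose and fell about as often as all genes tested, 7 and 7 of 31 (22.6% each way, beside 22.1% and 23.7% of all genes). Among the rises were Cpt1a, which admits long-chain fatty acids into mitochondria (from 52.1 ± 12.2 to 124 ± 19.2 CPM, log2 1.25), the kinase Pdk4 that restrains pyruvate oxidation (0.70) and the secreted lipase inhibitor Angptl4 (2.02, or 2.80 without histidine replicate 3). Among the falls were the fatty acid receptor Cd36 (-2.19), the carrier Fabp4 (-3.34, or -4.70 without replicate 4 of both compounds) and the lipase Lpl (-0.57), of which Cd36 and Fabp4 are also expressed in endothelial cells and macrophages. In the list of glycolysis and hypoxia genes 10 of 27 fell, with Pfkfb4, a regulator of glycolytic flux, at -0.88, and 3 rose (6 without histidine replicate 3). Genes that keep mitochondrial DNA hardly moved: 2 of 21 rose, with the helicase Twnk at 0.31, and 2 fell, with topoisomerase Top3a at -0.35.

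Targets of p53 rose as a group by count, 25 higher and 7 lower of 42, with a median of 0.49. Cdkn1a, which encodes the cell cycle inhibitor p21, was at 155, 165, 176, 166 and 152 CPM in the histidine libraries and at 888, 824, 1056, 1011 and 1025 CPM in the libraries with both compounds. The groups did not overlap, and the rise was 5.90-fold (log2 fold change 2.56, SE 0.078, adjusted p = 3.28e-10). Gdf15, a stress hormone and p53 target, rose 8.95-fold from 8.31 ± 1.90 to 74.4 ± 6.73 CPM (log2 fold change 3.16, SE 0.16, adjusted p = 1.71e-08). The epoxide hydrolase Ephx1 (log2 2.48), the death receptor Eda2r (1.88), Tp53inp1 (1.66), cyclin G1 (Ccng1, 1.50) and the kinase Plk2 (1.21) rose, as did the death receptor gene Fas (0.83) and the BH3-only gene Bbc3 (0.82). Lower p53 targets included the autophagy gene Dram1 (-0.76), Sesn1 (-0.59) and the spindle-associated genes Psrc1 (-0.81) and Ckap2 (-0.49).

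Mdm2, the ubiquitin ligase that degrades p53 and is itself a p53 target, showed 1 low library in each group. It was at 30.9, 113, 125, 118 and 113 CPM in the histidine libraries and at 481, 529.6, 470.1, 468 and 134 CPM in the libraries with both compounds. Histidine replicate 1 and replicate 5 of both compounds were far below the rest of their groups, yet the groups did not overlap, and the gene rose (log2 fold change 2.06, SE 0.41, adjusted p = 0.00151). The log2 fold change was 1.83 without the first and 2.29 without the second. Genes of the apoptosis machinery changed about as often as all genes tested, 7 higher and 7 lower of 30 (23.3% each way, beside 22.1% and 23.7%). The survival gene Mcl1 (log2 0.42) rose, Bcl2a1, a survival gene of blood cells, fell (-4.01), and Bax (0.22), Bcl2 (-0.052) and Casp9 (0.024) did not pass, although Bax did without replicate 2 of both compounds (0.34).

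Every one of the 49 mitosis genes tested fell, by a median of -3.33, and their summed level was 2244 ± 116 CPM with histidine and 269.5 ± 43.1 CPM with both. Ttk, a kinase of the spindle checkpoint, was at 22.5, 24.6, 21.1, 24.4 and 24.9 CPM in the histidine libraries and at 1.83, 1.70, 1.59, 1.56 and 1.65 CPM in the libraries with both compounds. No library with doxorubicin came near the lowest histidine library (14.1-fold, log2 fold change -3.82, SE 0.085, adjusted p = 3.63e-11). The proliferation antigen Mki67 fell 11.6-fold from 174 ± 15.7 to 15.03 ± 3.38 CPM (log2 -3.53). The ubiquitin-conjugating enzyme Ube2c (-4.53), securin Pttg1 (-4.09), cyclin B1 (Ccnb1, -4.05) and the centriole kinase Plk4 (-3.14) fell with it, and the phosphatase Cdc25c (-0.53) fell least.

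The promoters of mitosis genes are known for a CCAAT box, bound by NF-Y, and a cell cycle homology region, bound by the DREAM and MuvB complexes, and both were counted in the RefSeq promoter table (GRCr8), in the 250 bases before the gene start on either strand. CCAAT was in 29 of the 42 mitosis promoters matched (69.0%), against 34.02% of all 33469 promoters, and TTTGAA, the cell cycle homology core, in 18 (42.9%), against 16.2%. Among 8772 promoters of tested genes 34.9% held CCAAT and 10.4% TTTGAA. The motifs do not overlap each other in these letters. The windows of Ttk (chr8:93634389-93634638, plus strand), the mitosis gene with the smallest p, which holds CCAAT and not TTTGAA, and of Ect2 (chr2:111966627-111966876, minus strand), the cytokinesis exchange factor, and Cdk1 (chr20:19265043-19265292, plus strand), the mitotic kinase, the next by p that hold both, are shown 5′ to 3′ with both motifs and their reverse complements in capitals.
Ttk: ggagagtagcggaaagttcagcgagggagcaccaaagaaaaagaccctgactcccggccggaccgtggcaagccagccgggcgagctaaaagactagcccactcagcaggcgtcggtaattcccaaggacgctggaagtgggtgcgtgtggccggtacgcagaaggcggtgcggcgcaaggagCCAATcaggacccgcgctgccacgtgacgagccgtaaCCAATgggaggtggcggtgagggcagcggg
Ect2: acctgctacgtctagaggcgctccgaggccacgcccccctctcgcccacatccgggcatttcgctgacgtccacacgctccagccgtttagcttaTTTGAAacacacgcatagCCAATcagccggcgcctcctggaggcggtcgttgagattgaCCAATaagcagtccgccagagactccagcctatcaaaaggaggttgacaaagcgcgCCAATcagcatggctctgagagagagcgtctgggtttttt
Cdk1: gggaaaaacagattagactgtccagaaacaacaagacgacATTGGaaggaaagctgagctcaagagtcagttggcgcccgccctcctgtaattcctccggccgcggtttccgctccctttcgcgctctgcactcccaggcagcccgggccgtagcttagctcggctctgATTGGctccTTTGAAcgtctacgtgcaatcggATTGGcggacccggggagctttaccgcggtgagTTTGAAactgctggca
Ect2 went from 46.6 ± 2.23 to 3.88 ± 0.750 CPM (log2 -3.59) and Cdk1 from 67.7 ± 3.51 to 6.37 ± 1.20 CPM (-3.41). A match is only a description of the letters in this window.

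Replication genes fell less deeply and nearly as uniformly, with 41 of 42 lower and a median of -1.25. The epigenetic regulator Uhrf1 (log2 -3.29), the loading factor Cdc6 (-2.75) and ribonucleotide reductase Rrm2 (-2.73) fell most, and the helicase subunit Mcm3 fell from 56.5 ± 4.64 to 17.4 ± 0.718 CPM (-1.70). The exception was thymidylate synthase, Tyms, at 45.9, 44.7, 47.7, 48.4 and 49.5 CPM in the histidine libraries and at 61.6, 69.3, 55.1, 59.3 and 55.1 CPM in the libraries with both compounds. It rose by a small amount (log2 fold change 0.35, SE 0.07, adjusted p = 0.00174). Regulators of entry into S phase were divided, 15 lower and 7 higher of 25. The repressors E2f7 (-2.74) and E2f8 (-3.06), the inhibitor Cdkn2c (-2.19) and cyclin E2 (Ccne2, -1.42) fell, while D-type cyclins Ccnd1 (1.32) and Ccnd2 (0.88) and the inhibitors Cdkn1c (1.66) and Cdkn2b (0.90) rose.

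The topoisomerase II genes, whose products doxorubicin traps, differed in size of change. Top2a, the isoform of dividing cells, was at 180.5, 190.4, 172, 189 and 211 CPM in the histidine libraries and at 17.5, 25.1, 20.3, 12.7 and 14.6 CPM in the libraries with both compounds, a 10.5-fold fall (log2 fold change -3.39, SE 0.17, adjusted p = 1.76e-08). Top2b, the isoform of resting cells and the one found in cardiomyocytes, fell from 212 ± 14.5 to 183 ± 17.7 CPM (log2 -0.22, adjusted p = 0.0293), and it did not pass without histidine replicate 1, 4 or 5 or replicate 1, 3 or 5 of both compounds, or with library totals as scaling (adjusted p up to 0.105 over these). Top1 did not pass (0.026). Of 43 DNA repair genes 26 fell and 5 rose, and 3 rose without histidine replicate 1 or 5 or without replicate 1 or 5 of both compounds. The falls were led by genes that are also active in S phase, the exonuclease Exo1 (-3.33), Clspn (-3.07), Bard1 (-2.75) and Fanci (-2.28), whereas the single-strand break scaffold Xrcc1 (0.73), the end-joining gene Nhej1 (0.64) and the excision repair gene Xpc (0.36) rose.

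Chromatin assembly and lamina genes mostly fell (17 of 22). The chromatin protein Hmgb2 (log2 -2.92), the centromere chaperone Hjurp (-2.51), lamin B1 (Lmnb1, -2.42) and the lamin B receptor Lbr (-1.58) fell, and the methyltransferase Dnmt1 fell by 1.04 on the log2 scale. The 1 rise, Atrx (0.26, adjusted p = 0.023), did not pass without histidine replicate 2 or 4 or replicate 1 of both compounds.

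Drug efflux and quinone-reducing genes rose where they changed, with the exception of 2. Abcb1b, which encodes a P-glycoprotein that exports doxorubicin, was at 109.6, 107, 159, 94.6 and 113 CPM in the histidine libraries and at 975, 971, 917, 958 and 921 CPM in the libraries with both compounds. The groups did not overlap (8.12-fold, log2 fold change 3.02, SE 0.12, adjusted p = 3.44e-09). Its close paralog Abcb1a rose too (log2 2.41), and reads may be shared between them. Nqo1, the quinone reductase, was at 34.9, 31.0, 50.0, 32.9 and 33.0 CPM in the histidine libraries and at 341, 356, 416, 332 and 340.5 CPM in the libraries with both compounds (9.81-fold, log2 fold change 3.29, SE 0.13, adjusted p = 3.31e-09). Over the list 6 of 16 rose, with the exporters Abcc1 (0.37) and Abcc4 (0.50), and Nos3, the endothelial nitric oxide synthase (-2.29), and Akr1a1, an aldo-keto reductase (-0.20), fell. The exporter Abcg2 (0.083) did not pass.

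Antioxidant genes under NRF2 rose in part, 13 higher and 5 lower of 32. Besides Nqo1, the glutathione transferase Gsta1 rose from 89.3 ± 7.02 to 301 ± 16.96 CPM (log2 1.75), the aldehyde oxidase Aox1 from 10.2 ± 1.29 to 49.3 ± 2.30 CPM (2.28) and Gstp1 from 109.5 ± 7.75 to 246 ± 22.6 CPM (1.17). Gsta genes are a family of near copies. The glutamate-cysteine ligase Gclc (0.39), thioredoxin reductase Txnrd1 (0.37) and catalase Cat (0.67) rose by smaller amounts, the regulatory subunit Gclm (-0.23, or -0.30 and past the test without replicate 2 of both compounds) did not pass, and heme oxygenase Hmox1 fell from 156 ± 36.3 to 103 ± 6.35 CPM (-0.61, adjusted p = 0.00221).

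The core of the antioxidant response element, TGACNNNGC, was in the 250 bases before the start of 5 of 29 matched genes of this list (17.2%), against 10.1% of all promoters and 12.3% of those of tested genes. Such elements often lie further from the start, so no match in this window has no bearing on the factor. Gsta1, first by p, has none, and the next by p to hold one is Gstp1, shown 5′ to 3′ with the element in capitals (chr1:210769706-210769955, minus strand, GRCr8).
Gstp1: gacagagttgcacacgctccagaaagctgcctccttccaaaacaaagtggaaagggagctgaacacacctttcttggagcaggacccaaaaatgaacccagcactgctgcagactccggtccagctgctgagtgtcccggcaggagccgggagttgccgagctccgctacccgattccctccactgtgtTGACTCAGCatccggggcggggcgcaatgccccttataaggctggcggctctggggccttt

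Iron genes fell and rose in small numbers, 5 and 3 of 25 (20% and 12%, beside 23.7% and 22.1% of all genes tested). The transferrin receptor Tfrc, which takes up iron, fell from 85.7 ± 8.21 to 41.9 ± 3.48 CPM (log2 fold change -1.03, SE 0.079, adjusted p = 7.52e-07), and the metal importer Slc39a8 fell (-1.07), while ferroportin, Slc40a1, the iron exporter, rose from 21.8 ± 2.46 to 33.6 ± 5.76 CPM (0.63). The ferritin chain Fth1 (-0.11) and the lipid peroxidase Gpx4 (0.18) did not pass, although Gpx4 did without histidine replicate 3 (0.21) or replicate 2 of both compounds (0.23).

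The genes that handle histidine itself fell or did not pass, 4 lower (36.4%) and 0 higher of 11 tested, with 1 higher without histidine replicate 3. Of all genes tested 23.7% were lower and 22.1% higher. Cndp1, which cleaves carnosine into histidine and beta-alanine, was at 14.9, 12.3, 14.8, 12.6 and 11.6 CPM in the histidine libraries and at 0.451, 0.234, 0.0789, 0.375 and 0.653 CPM in the libraries with both compounds. It fell 36.5-fold (log2 fold change -5.19, SE 0.34, adjusted p = 2.14e-07). The cytosolic dipeptidase Cndp2 fell from 140.1 ± 5.83 to 76.4 ± 5.31 CPM (log2 -0.87), and carnosine synthase Carns1 (-0.39, a call lost without replicate 1 of either group, at -0.35 and -0.37) and the histamine-degrading Aoc1 (-1.22) fell. Histidine decarboxylase Hdc, which makes histamine, averaged 0.179 ± 0.129 CPM with histidine and 0.462 ± 0.226 CPM with both and did not pass (1.34, adjusted p = 0.0987). The histamine receptor Hrh1 averaged 0.434 ± 0.287 CPM with histidine and 0.0992 ± 0.181 CPM with both and did not pass either (adjusted p = 0.101), although it did without replicate 2 of both compounds, the highest of that group. The histidyl-tRNA synthetase Hars1 stayed at 74.7, 76.1, 70.6, 81.1 and 81.0 CPM in the histidine libraries and at 74.6, 74.2, 80.2, 77.8 and 81.8 CPM in the libraries with both compounds, with overlapping groups (log2 fold change 0.019, SE 0.055, adjusted p = 0.803).

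Amino acid carriers fell more often than they rose, 13 to 2 of 23. Slc38a3, a sodium-coupled carrier of glutamine and histidine, was at 0.565, 0.251, 0.385, 0.584 and 0.795 CPM in the histidine libraries and at 5.44, 4.99, 5.24, 4.99 and 6.98 CPM in the libraries with both compounds. It rose from a low level (10.7-fold, log2 fold change 3.41, SE 0.26, adjusted p = 6.15e-07). Slc7a5, the exchanger of large neutral amino acids that also carries histidine, was at 310.0, 310.2, 253, 294 and 271 CPM in the histidine libraries and at 162, 144, 132, 172 and 172 CPM in the libraries with both compounds, and it fell (log2 fold change -0.88, SE 0.086, adjusted p = 6.06e-06), with its partner chain Slc3a2 at -0.36. The lysosomal histidine and peptide carrier Slc15a3, typical of macrophages, fell from 24.8 ± 1.30 to 0.996 ± 0.432 CPM (-4.63), and Slc7a8 fell by 2.06 on the log2 scale.

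Genes of the amino acid response under ATF4 fell, 13 of 23, with 2 higher (4 without replicate 2 of both compounds). The stress factor Atf3 fell from 12.3 ± 2.03 to 1.30 ± 0.302 CPM (log2 -3.24), the serine synthesis genes Psat1 (-1.19) and Phgdh (-0.86), the proline gene Pycr1 (-1.01) and the cystathionine lyase Cth (-1.35) fell, and Atf4 itself fell slightly (-0.39). The rises were Gdf15 and Sesn2 (0.85), both also in the p53 list. Asparagine synthetase Asns (-0.11) and Ddit3 (0.17) did not pass, although Ddit3 did without replicate 2 of both compounds (0.21). Of 19 tRNA synthetases 10 fell and none rose, with Yars1 at -0.62 and Eprs1 at -0.37, and 6 fell when only the library totals were used for scaling.

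Protein folding genes showed small changes. The chaperone-assisted autophagy genes Bag3, from 61.8 ± 5.26 to 101 ± 5.02 CPM (log2 0.71), and Hspb8 (0.88) rose with the inducible Hspa1a (1.03), while Hspb7, the heart and muscle small heat shock protein, fell (-0.69). Over the heat shock list 5 of 22 rose (22.7%) and 3 fell (13.6%), 1 of them in the fit over all 20 libraries. In the endoplasmic reticulum the isomerases Pdia4 (-0.60) and Pdia6 (-0.62) and the chaperone Hspa5 (-0.40) fell and the stress sensor Eif2ak3 rose (0.46). Over that list 7 of 21 fell (33.3%) and 3 rose (14.3%), near the 23.7% and 22.1% of all genes tested. Immediate early genes were mixed (9 higher, 5 lower of 22), with Klf4 (1.93) and Egr1 (0.74) higher, Jun (-0.69) lower and Fos (-0.11) not past the test.

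Cytokine genes moved in opposite directions. Of 26 cytokines and secreted factors 12 rose and 7 fell. Il6 was at 8.75, 10.01, 27.5, 7.86 and 8.98 CPM in the histidine libraries and at 79.7, 81.9, 83.1, 69.3 and 69.2 CPM in the libraries with both compounds. Histidine replicate 3 was the highest of its group and still below every library with doxorubicin, and Il6 rose 6.07-fold (log2 fold change 2.60, SE 0.33, adjusted p = 4.83e-05). The epidermal growth factor family member Ereg (1.06), the colony-stimulating factor Csf1 (1.71) and the growth factor binding protein Igfbp5 (1.58) rose. The falls included Tnf, Il1b, Il1a (-4.44, or -3.13 without histidine replicate 3), the macrophage cytokine Il18, from 16.6 ± 2.80 to 0.418 ± 0.115 CPM (-5.30), the antagonist Il1rn (-1.29) and Nos2 (-2.75, or -1.21 without histidine replicate 3). Markers of macrophages fell in the same libraries (all 21 tested, summed level 4347 ± 308 CPM with histidine and 203 ± 13.4 CPM with both), and their part in these falls was not tested.

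Chemokines divided likewise, with 9 of 18 lower and 3 higher. Ccl4 (log2 -7.54), Ccl3 (-6.36, or -7.08 without replicate 4 of both compounds) and Cxcl13, from 27.6 ± 5.74 to 0.524 ± 0.206 CPM (-5.72), which recruit leukocytes, fell, and the neutrophil attractant Cxcl1 rose from 132 ± 47.7 to 276 ± 28.6 CPM (1.06, adjusted p = 7.03e-04) together with Ccl2 (0.93) and Cx3cl1 (0.40). Without histidine replicate 3, in which many chemokines were highest, 7 rose instead of 3. The adhesion molecules Icam1, from 133 ± 11.6 to 212 ± 20.5 CPM (0.68), and Vcam1 (0.97) rose within the NF-kB list, of which 5 of 20 rose and 7 fell (25% and 35%, beside 22.1% and 23.7% of all genes tested).

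Interferon-stimulated genes fell, 30 of 42 with a median of -0.68, and 5 rose. Oasl, an antiviral sensor, was at 9.43, 8.33, 12.5, 9.60 and 10.4 CPM in the histidine libraries and at 2.08, 2.04, 2.15, 2.31 and 2.74 CPM in the libraries with both compounds, without overlap (log2 fold change -2.15, SE 0.13, adjusted p = 1.02e-07). Mx1 (-3.97), Oas3 (-4.72), Oas2 (-3.03) and Isg15 (-1.76) fell, as did the deubiquitinase Usp18, from 42.5 ± 4.44 to 10.8 ± 1.91 CPM (-1.97), and the DNA sensing genes Sting1 (-1.35) and Cgas (-1.18). Gbp2 rose from 48.7 ± 4.89 to 89.1 ± 1.55 CPM (log2 fold change 0.87, SE 0.067, adjusted p = 7.53e-07), next to Gbp5 (0.35), the peptide transporter Tap1 (0.40) and Isg20 (1.11). Macrophages are among the cells that express interferon-stimulated genes, and the part of their markers' fall was not tested.

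The core of the interferon-stimulated response element, GAAA and GAAA with 2 bases of any kind between them, to which IRF factors and STAT complexes bind, was in the 250 bases before the start of 19 of 32 matched genes of this list (59.4%), against 3.41% of all promoters, on either strand. Among promoters of tested genes 2.77% held it. The element was present in promoters of both directions of change. Gbp2, which rose (chr2:234005477-234005726, plus strand), and Bst2, an antiviral tether that fell from 140.4 ± 9.53 to 59.97 ± 8.91 CPM (log2 -1.23; chr16:18254968-18255217, minus strand), are the first members by p to hold it and are shown 5′ to 3′ in GRCr8 with the element in capitals, overlapping matches joined. Oasl, first by p, has none in this window.
Gbp2: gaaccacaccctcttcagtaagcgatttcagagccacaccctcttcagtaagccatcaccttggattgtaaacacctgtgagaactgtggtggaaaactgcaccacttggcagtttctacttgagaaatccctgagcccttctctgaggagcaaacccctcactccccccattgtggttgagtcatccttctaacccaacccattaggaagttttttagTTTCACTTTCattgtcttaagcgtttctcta
Bst2: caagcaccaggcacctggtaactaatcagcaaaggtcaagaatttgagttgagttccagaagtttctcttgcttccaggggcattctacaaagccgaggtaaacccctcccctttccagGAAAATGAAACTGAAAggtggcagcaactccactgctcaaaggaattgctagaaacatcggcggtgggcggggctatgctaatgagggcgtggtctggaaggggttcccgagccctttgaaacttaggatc

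Markers of macrophages showed the deepest fall of any list described here (median -6.47). C1qb, a chain of complement C1q made by macrophages, was at 35.4, 34.6, 46.1, 46.7 and 32.1 CPM with histidine and kept 12 reads over the 5 libraries with both compounds, 1082 times fewer for the same TMM-scaled depth (95% Poisson limits 619.6 and 2095). Ptprc, the leukocyte antigen CD45, was at 86.1, 115, 114, 80.6 and 127 CPM in the histidine libraries and at 1.34, 1.47, 0.820, 1.30 and 0.808 CPM in the libraries with both compounds, a 90.8-fold fall (log2 fold change -6.51, SE 0.22, adjusted p = 8.07e-10). Csf1r, the receptor that macrophages need for survival (-6.56), Aif1 (-7.01), Cx3cr1 (-7.98), lysozyme Lyz2, from 1001 ± 43.8 to 28.4 ± 3.73 CPM (-5.14), and Cd68 (-4.94) fell in the same way, and Fcer1g (-1.44) fell least. None of these genes was at 0 in every library with doxorubicin.

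Antigen presentation and complement genes that macrophages express fell too. Of 9 class II pathway genes 7 fell, with the protease Ctss (-5.48) and RT1-DMa (-3.68), while the costimulatory gene Cd80 rose from 15.2 ± 0.956 to 44.0 ± 5.03 CPM (1.53). Of 19 complement genes 10 fell and 6 rose. The C1q chains, properdin Cfp (-2.94) and the receptor C3ar1 (-7.56) were among the falls, whereas C1r, from 674 ± 118 to 1207 ± 108 CPM (0.84), C1s (0.79), C3 (0.98) and the complement inhibitor Cd55 (1.28), which fibroblasts also make, rose.

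Endothelial markers moved both ways, 9 lower and 4 higher of 19, with log2 fold changes from -4.58 to 1.18 over the list. Only 2 were higher without histidine replicate 5 or without replicate 1, 2 or 3 of both compounds. The junction genes Esam (-4.58) and Cdh5 (-4.31, or -5.58 without replicate 3 of both compounds), the receptor Tie1 (-4.18) and the transcription factor Fli1 (-2.29) fell, and Pecam1, also on leukocytes and platelets, fell from 3.81 ± 1.80 to 0.716 ± 0.273 CPM (-2.41). The angiopoietin receptor Tek rose from 6.04 ± 1.12 to 12.4 ± 1.08 CPM (1.03). Smooth muscle and pericyte markers fell, 11 of 17, including calponin Cnn1 (-2.06) and Acta2, the actin of smooth muscle and myofibroblasts, from 4184 ± 655 to 1882 ± 203 CPM (-1.15). The pericyte channel subunits Abcc9 (0.60) and Kcnj8 (0.34) were the 2 rises, and 1 was past the test when any library except histidine replicate 3 was left out.

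Fibroblast markers changed little in sum, 113647 ± 7048 CPM with histidine and 111970 ± 6242 CPM with both, and moved both ways, 8 higher and 7 lower of 23. Leaving out histidine replicate 2 or replicate 1 or 4 of both compounds left 5 rises, and leaving out replicate 5 of both compounds left 4. Col1a1, the main chain of type I collagen, was at 40908, 41696, 33101, 38543 and 33775 CPM in the histidine libraries and at 27631, 24159, 26873, 29859 and 31324 CPM in the libraries with both compounds. The groups were close, and the fall was small (log2 fold change -0.43, SE 0.092, adjusted p = 0.00255). Fibronectin, Fn1, rose from 25176 ± 3466 to 38793 ± 1222 CPM (0.62), and the small proteoglycan Fmod fell from 88.2 ± 5.43 to 39.5 ± 4.09 CPM (-1.16). Pdgfra (0.25), Vim (-0.062) and Postn (0.15) did not pass, although Pdgfra did without histidine replicate 3 (0.42) and Postn without replicate 3 of both compounds (0.26).

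Collagen genes changed at shares near those of all genes tested, 8 higher and 10 lower of 32 (25% and 31.2%, beside 22.1% and 23.7%). Col28a1 had 0 reads in all histidine libraries and was at 0.793, 0.267, 0.883, 0.548 and 0.420 CPM with both compounds, at least 59.3-fold higher. Col8a2 fell from 29.4 ± 4.34 to 7.69 ± 0.747 CPM (log2 -1.94), and the basement membrane chain Col18a1 fell by 0.65 on the log2 scale. Among 32 matrix enzymes and inhibitors 8 rose and 12 fell (25% and 37.5%). The urokinase Plau (-3.08), the crosslinking transglutaminase Tgm2 (-1.63) and lysyl oxidase Lox (-0.73) fell, and the gelatinase Mmp2, from 1223 ± 118 to 2994 ± 160.1 CPM (1.29), the aggrecanase Adamts5 (1.59) and the inhibitor Timp1 (0.66) rose.

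In the TGF-beta and BMP list 12 of 31 rose and 8 fell. The matricellular target Ccn2 fell from 4292 ± 176 to 1824 ± 283 CPM (log2 -1.23) and the ligands Tgfb3 (-1.33) and Tgfb2 (-0.71) fell, whereas the BMP ligand Bmp2 (1.75), its antagonist Nog (2.73) and the activin antagonist Fst (1.52) rose. Mesothelial markers were split, 8 higher and 5 lower of 16: Upk1b, Efemp1, Dsc3 and Aldh1a1 (2.23) rose, and E-cadherin Cdh1 fell from 16.3 ± 4.34 to 0.547 ± 0.319 CPM (-4.90) with keratins Krt18 (-2.11) and Krt8 (-0.97). Of 9 glial and nerve genes 4 rose, among them Stmn2 (1.04), and the receptor Erbb3 (-3.25, or -3.93 without replicate 3 of both compounds) and the myelin gene Pmp22 (-0.44) fell.

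Of 34 genes of cholesterol and fatty acid synthesis and its regulators 21 fell, with a list median of -0.28. The falls included the fatty acid desaturase Scd (-1.92), the sterol exporter Abcg1, from 41.6 ± 3.28 to 16.4 ± 2.18 CPM (-1.34), and the carrier Stard4 (-1.24). The sterol sensor partner Scap was the 1 rise (0.31), and 2 genes rose without histidine replicate 1 or without replicate 2 of both compounds. When only the library totals were used for scaling, 18 fell and 3 rose. Autophagy and lysosome genes moved both ways, 14 higher and 8 lower of 39 (35.9% and 20.5%, beside 22.1% and 23.7% of all genes tested). The autophagy receptor Sqstm1 (0.58) and the kinase Ulk1 (0.43) rose, and the cathepsins Ctsz (-2.32), abundant in macrophages, and Ctsl, from 923 ± 60.4 to 386 ± 15.5 CPM (-1.26), fell.

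Of 39 ribosomal protein genes 16 fell by small amounts (median over the list -0.12) and 1 rose. Rpsa fell from 1416 ± 80.1 to 1169.6 ± 48.7 CPM (log2 -0.28) and Rpl22 by 0.25 on the log2 scale. The fit over all 20 libraries left 3 falls, and the rise of Rplp1 (0.15, adjusted p = 0.0434) was lost without any of these libraries: histidine replicates 1, 2, 3 and 5 and replicates 2, 4 and 5 of both compounds. Receptor and hormone genes of the adrenergic and angiotensin systems were mixed, 12 lower and 7 higher of 29, with 4 higher without histidine replicate 4 or 5 or without replicate 2 or 3 of both compounds. The receptor kinase Grk3 (-6.85, or -7.94 without replicate 5 of both compounds) and the cardiac beta-1 receptor Adrb1 (-1.97) fell, and the adenylyl cyclase Adcy6 (0.58) and the angiotensin-processing enzyme Ace (1.11) rose.

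The same drug effect was measured in the other 10 libraries of the study, doxorubicin against PBS, which share no library with this comparison. There 5460 of 15325 genes passed (35.6%), and 6944 passed without doxorubicin replicates 3 and 4. Replicate 4 exceeded every other doxorubicin library by more than 2-fold for 743 genes and replicate 3 for 14, against 0 to 1 for the other 3. Of 15280 genes tested with and without histidine, 4539 passed in both, which is 65.0% of the calls with histidine and 83.4% of those without. All 4539 had the same direction. Over 11130 genes with a mean of at least 5 CPM the log2 fold changes of the 2 comparisons had a Pearson r of 0.952 and a Spearman rho of 0.769, across genes, which are not independent replicates.

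**Figure D3:**
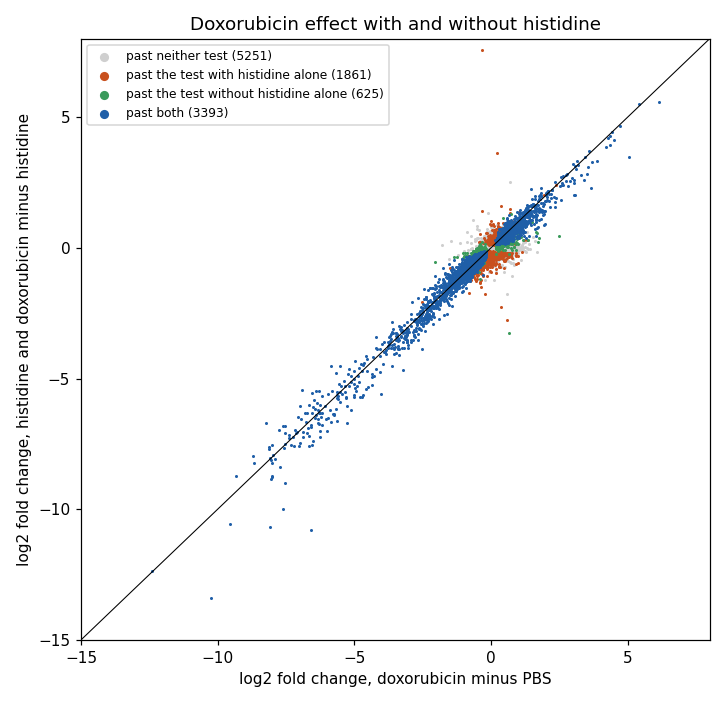
Log2 fold change of doxorubicin against PBS (horizontal axis) and of histidine with doxorubicin against histidine (vertical axis), 1 dot per gene with a mean of at least 5 CPM, and a line where both are equal. Of these genes 3393 passed in both comparisons, 1861 with histidine alone, 625 without histidine alone and 5251 in neither, and the dots run along the line.

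The difference between the drug effects was tested gene by gene as an interaction over all 20 libraries. By edgeR's quasi-likelihood test 0 of 15449 genes passed, with 1060 at an unadjusted p under 0.05 (6.86%) and a smallest adjusted p of 0.167. DESeq2 called 15 genes, 8 of them with a higher and 7 with a lower log2 fold change in the presence of histidine. Plek, one of the genes DESeq2 called, is a protein of platelets and leukocytes, at 11.5, 13.5, 14.5, 13.3 and 15.4 CPM with histidine and 0.150, 0.234, 0.126, 0.0721 and 0.0622 CPM with both, beside 13.2, 12.8, 11.6, 14.3 and 13.9 CPM with PBS and 0.299, 0.197, 0.280, 0.384 and 0.548 CPM with doxorubicin. It fell in both settings, by 6.72 with and 5.25 without histidine on the log2 scale. The adjusted p for the difference was 0.631 by edgeR and 0.00496 by DESeq2. Chaf1b, a subunit of the chromatin assembly factor, fell by 2.22 with and 1.44 without histidine on the log2 scale (adjusted p for the difference 0.189 by edgeR and 0.00194 by DESeq2). DESeq2 also called Lst1 (difference -4.45, adjusted p = 0.00194) and, in the higher direction, Ldah (3.43, adjusted p = 0.0323), whose levels switched between libraries. By edgeR Lst1 passed only without doxorubicin replicate 2 (adjusted p = 0.0334).

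List medians were set beside those of the comparison without histidine. The median was -3.33 with histidine and -3.06 without for the mitosis genes, -6.47 with histidine and -5.996 without for the macrophage markers, -2.06 with histidine and -2.15 without for the cardiomyocyte markers and 0.49 with histidine and 0.64 without for the p53 targets. Nuclear respiratory genes were at -0.14 with histidine and 0.26 without, and ribosomal protein genes at -0.12 with histidine and 0.29 without. Those differences were smaller without doxorubicin replicates 3 and 4, where the medians of the comparison without histidine were -0.055 and -0.035. Chemokines stood at -0.60 with histidine and 0.28 without (0.049 less those replicates). The value with histidine includes histidine replicate 3, without which 7 chemokines rose instead of 3 and 9 fell as before. For the mitosis genes the median of the difference between the effects was -0.29 with all libraries and -0.29 without doxorubicin replicates 3 and 4. Of the 49 mitosis genes 13 had a difference at an unadjusted p under 0.05 (26.5%, beside 6.86% of all genes), and 9 without those replicates (18.4%, beside 4.62%), and none passed after adjustment over all genes and libraries. For the macrophage markers that count was 3 of 21. None of these differences between medians was tested.

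Several genes known from acute inflammation were highest in histidine replicate 3. Of the 37 genes more than 2-fold above every other histidine library, 34 had a symbol, among them the chemokines Cxcl2, Cxcl3, Cxcl6, Ccl12, Ccl3 and Ccl7, the cytokines Il1b and Il6, the phospholipase Pla2g2a, the iron-binding Lcn2 and the adhesion receptor Selp. PBS replicate 3 was the highest PBS library for 37 of the 37, and replicate 3 of both compounds the highest of its group for 27. In the doxorubicin group replicate 3 was highest for Pla2g2a (331 CPM) and Cxcl6 (388 CPM), and replicate 4 for Ccl2 (2304 CPM) and Ccl7 (964 CPM). A shared source of same-numbered libraries was not tested. With doxorubicin 21 of the 37 passed, 12 higher and 9 lower. Without histidine replicate 3, 30 passed, all 21 of the first count among them. Over the whole transcriptome 6575 genes passed both with and without it.

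**Figure D4:**
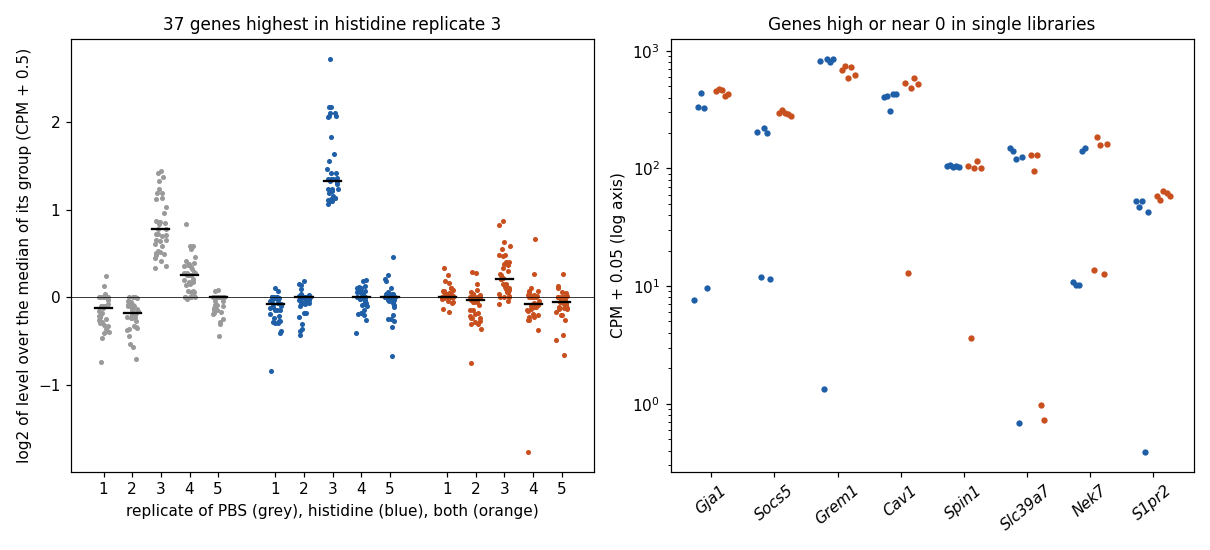
Left: log2 of each library's CPM over the median of its group for the 37 genes highest in histidine replicate 3, by replicate number in the PBS, histidine and combined groups (1 dot per gene), with the dots of replicate 3 above the others in the histidine group. Right: CPM (log axis) of Gja1, Socs5, Grem1, Cav1, Spin1, Slc39a7, Nek7 and S1pr2 in each of the 10 libraries, where single libraries of either group sit far below the rest.

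The switching genes, defined above by the ratio of highest to lowest library, occurred in either group, 88 within the histidine libraries and 82 within the libraries with both compounds. That ratio also takes in genes raised in 1 library, so these genes need not hold distinct levels. Grem1, a BMP antagonist, was at 816, 1.28, 848, 810.3 and 859 CPM in the histidine libraries and at 692, 743, 583, 723 and 626 CPM in the libraries with both compounds. Cav1, which encodes the coat protein of caveolae, was at 408, 413, 309.9, 431 and 426 CPM in the histidine libraries and at 529, 12.9, 483, 585 and 523 CPM in the libraries with both compounds. Each was low in 1 library only, and neither passed the test with all libraries. Without its low library Grem1 passed at -0.31 and Cav1 at 0.41 on the log2 scale. The 11 such genes that passed include Nos2, whose replicate 3 stood at 77.3 CPM against 6.59 to 8.49 CPM in the remaining histidine libraries, and the macrophage chemokine Ccl6, with 75.7 CPM there and 6.01 to 11.2 CPM elsewhere in the group. Without histidine replicate 3 their log2 fold changes were -1.21 and -3.30, against -2.75 and -4.69 with it. Another of the 11, ENSRNOG00000067655, was at 424 CPM in replicate 3 of both compounds and at 0.227 to 0.785 CPM in the other 9 libraries, so its call rests on 1 library. With all 128 left out of the fit, 7065 genes passed.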

How the data were processed

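RNA-seq was deposited as 1 table of 15503 genes in 20 libraries. The raw read counts per gene were made by the authors, as were the FPKM values beside them, per the file headers. Reads were trimmed with Trimmomatic and the genome build was mRatBN7.2, per the submitters' processing notes. Neither labels nor headers name the aligner, the counter, the filter on genes or the strand setting, so reads of overlapping or antisense genes cannot be told apart. Gene coordinates were read from that table. Symbols came from protein accessions, KEGG names and protein names in the table, matched to a RefSeq gene table (GRCr8), for 10804 genes.

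Counts of the 10 libraries were filtered with filterByExpr, scaled by TMM and tested with edgeR 4.0.16 (R 4.3.3) by the quasi-likelihood F test without a replicate block, with Benjamini-Hochberg adjustment over all 15350 genes and a threshold of 0.05. The SE is the log2 fold change over the square root of F. Errors in CPM are SDs over 5 libraries, and CPM are TMM-scaled. The interaction was fitted on all 20 libraries. With 53246205 or more counts per library, zero counts were set against 3 reads over the group, and counting intervals cover counting error only. Pairs of libraries within a group differed beyond sampling noise (chi-square over its degrees of freedom 34.9 to 117), so all were kept. In simulated counts of 15319 genes, 67 were changed 1.5-fold, 67 were changed 2-fold and 66 were changed 4-fold. The test recovered 44.8%, 77.6% and 98.5% of these, with 8 false calls (5.16%). Far fewer genes changed there than in the data, and no library was made to stand apart, so these rates need not hold for the real comparison.

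The members and the gene lists were chosen with earlier results of these data known, and listed genes without a match were not analysed here. Named by rule were the 10 largest rises and falls with a mean of at least 5 CPM, no overlap and a symbol, in each list the 2 genes with the smallest p and 1 moving against the rest, a set of genes central to the treatment, and 5 interaction genes in each direction. Further list members named in the text were picked as examples after their values were seen. Promoters shown were the first by p and, where that lacked a motif of its list, the next that held all of them, a departure from showing the first alone. Alternatives were DESeq2 1.42.0, limma 3.58.1 on log2(FPKM + 1) and log2(FPKM + 0.1), other scalings and filters, a fit over all 20 libraries, a replicate block, a test against a 1.5-fold change and leaving out each library. Python 3.11.15, pandas 2.3.3 and scipy 1.17.1 were used for tables.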

Additional observations from a re-analysis of the deposited data

Results flagged for a closer look

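In 49 of 324 groups of 5 libraries formed by the named genes, 1 library lay far from the other 4, measured by its gap to the nearest other library over the whole range of the group (Dixon's criterion at the 95% level). Chance gives about 1 in 20 groups. Values are in CPM, and no cause was tested. Histidine replicate 3 was the highest of the 5 histidine libraries for Abcb1b at 159, C1r at 884, Cacna1d at 1.603, Ccl4 at 23.1, Cdh1 at 23.998, Col8a2 at 36.998, Cpt1a at 73.4, Ctsl at 1026, Cxcl1 at 217, Des at 153, Dram1 at 56.5, Hmox1 at 219.8, Hspb7 at 44.4, Il1b at 86.6, Il6 at 27.5, Klf4 at 72.1, Nppb at 41.2, Nqo1 at 50.0, P4ha2 at 246 and Pla2g2a at 33.1. Of these genes 10 passed the test as higher with doxorubicin (Abcb1b, C1r, Cacna1d, Cpt1a, Cxcl1, Il6, Klf4, Nqo1, P4ha2 and Pla2g2a) and 10 as lower.

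Replicate 3 of both compounds was the highest of the 5 with both compounds for Bag3 at 109.6, C1r at 1394, Cdh1 at 1.10, Cst6 at 21.9, Fn1 at 40912, Nqo1 at 416 and Pla2g2a at 187. Replicate 5 of both compounds was the highest of the 5 with both compounds for Chaf1b at 3.54, Lst1 at 0.0466, Slc38a3 at 6.98, Tnnt2 at 59.7 and Usp18 at 14.2. Replicate 2 of both compounds was the lowest of the 5 with both compounds for Adcy6 at 173, Col18a1 at 268 and Xrcc1 at 45.1. Histidine replicate 4 was the highest of the 5 histidine libraries for Pdia6 at 529 and Xrcc1 at 37.8. Histidine replicate 5 was the highest of the 5 histidine libraries for Atrx at 167 and Cst6 at 0.549. Histidine replicate 5 was the lowest of the 5 histidine libraries for Ckb at 113 and Cndp2 at 130.1. Replicate 2 of both compounds was the highest of the 5 with both compounds for Cd80 at 52.7 and Hrh1 at 0.417. Histidine replicate 1 was the lowest of the 5 histidine libraries for Mdm2 at 30.9. Histidine replicate 3 was the lowest of the 5 histidine libraries for Clec4a1 at 61.0. Histidine replicate 4 was the lowest of the 5 histidine libraries for Ttn at 39.8. Replicate 3 of both compounds was the lowest of the 5 with both compounds for Top3a at 18.1. Replicate 4 of both compounds was the highest of the 5 with both compounds for Mrgprx3 at 0.0576. Replicate 5 of both compounds was the lowest of the 5 with both compounds for Mdm2 at 134.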

How the results depend on the processing

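The 7036 calls became 7034 with RLE size factors, 7140 with upper quartile factors, 7261 with library totals (4135 higher, 3126 lower), 7353 with DESeq2, 7266 with limma on log2(FPKM + 1), 7067 with no filter, 5295 above 5 CPM and 6206 over all 20 libraries. Leaving out 1 library gave 6405 to 7007 calls, 3031 to 3412 higher and 3361 to 3651 lower. Tested against a 1.5-fold change, 2271 genes passed, 884 higher and 1387 lower, by that test's construction. Without the switching genes 7065 passed and with a robust spread 7021, both chosen after seeing the data.

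Replicate numbers were not taken to pair the libraries, since the titles say nothing of shared cultures. Deviations of same-numbered libraries correlated at -0.0765 to 0.111 over genes, and 1 of 5 correlated best with its own number. Replicate 3 was the highest PBS library for 37 of the 37 genes highest in histidine replicate 3, and the highest with both compounds for 27. A shared source of same-numbered libraries was not tested. With the number as a replicate block 6455 genes passed, 3102 higher and 3353 lower, and 0 for the interaction. The SE of the Pla2g2a change was 0.35 with the block and 0.64 without it, and that of Mdm2 0.46 and 0.41. It was 0.24 and 0.33 for Il6, 0.13 and 0.19 for Cxcl1 and 0.058 and 0.055 for Hars1. The interaction gave 15 calls with DESeq2, 8 higher and 7 lower, and 0 to 2 when 1 library was left out, 0 to 1 higher and 0 to 2 lower (1 call without doxorubicin replicate 1, 2 without doxorubicin replicate 2 and 1 without doxorubicin replicate 5). The cause was not tested.

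Of the values of genes named by rule over all alternatives, 3639 kept direction and side of the threshold, 25 lost the threshold, 10 gained it and 1 turned: Hars1, at 0.019 over all libraries, ranged from -0.00958 (without histidine replicate 3) to 0.0393 when 1 library was left out, without passing in any of these fits. Cox7b, Rpl22 and Rpsa lost their calls in the fit over all 20 libraries, Hdc gained one with limma, and Mt-co3 without replicate 2 of both compounds. Of list counts 2176 stayed within 1.5 times and 112 moved further, mostly counts under 10. Depth limits the fitted falls of genes left with 0 to 3 reads.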

Other observations

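Long noncoding RNA genes rose more often than they fell, 240 higher (27.8%) and 99 lower (11.5%) of 862 tested, beside 22.03% higher and 24.7% lower among 14206 protein-coding genes. Their share of all counts was 1.12 to 1.17% in the histidine libraries and 1.21 to 1.30% with both compounds, without overlap. With strand not given, reads of a noncoding gene and of an overlapping coding gene cannot be told apart.

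The span of a gene from start to end bore little relation to its change: Spearman's rho across genes was 0.0648 with histidine. Of the shortest 20% of genes 17.4% rose and 20.9% fell, and of the longest 20% 28.9% rose and 21.5% fell. Without histidine rho was -0.116, and 0.00146 without doxorubicin replicates 3 and 4, so that value moved with 2 libraries. Reads of mitochondrial genes took 3.27 to 3.61% of counts with histidine and 3.02 to 3.95% with both compounds, and these ranges overlapped.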
